A study of Homo sapiens with 8 samples.

Results

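The subject of these results is 9 genes by which breast tumors are classed: the hormone receptors ESR1 and PGR, the luminal transcription factors GATA3 and FOXA1, the basal keratins KRT5, KRT14 and KRT17, and the epithelial adhesion genes EPCAM and CDH1. They were chosen by symbol, as genes that define receptor status and lineage, with earlier results of these data known. All 9 symbols were found among the 21059 genes of the table. RNA sequencing was done in MDA-MB-157, an established human breast cancer line labelled as estrogen receptor negative, grown for 48 hours at a glucose concentration of 5 mM in the low glucose group and of 25 mM in the high glucose group, with 4 libraries in each. Per the study's methods, all cells were first conditioned in low glucose medium and both media lacked serum, and the comparison models hyperglycemia in culture. The methods balanced osmolarity with mannitol in some experiments, and the paper saw no difference with it in the phenotypes compared, proliferation and migration. No such comparison of RNA levels is given, and the labels do not say whether these low glucose cells had mannitol. Effects of glucose and of osmolarity on RNA levels therefore cannot be told apart here. The line comes from 1 tumor, and the sources do not say that the 4 replicates of a group came from independent experiments, so the p-values measure only the spread between these libraries.

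In the mammary epithelium, luminal cells line the ducts and basal cells lie between them and the basement membrane. ESR1 encodes estrogen receptor alpha and PGR the progesterone receptor, which estrogen receptor alpha induces, while FOXA1 opens chromatin for the receptor and GATA3 acts with it to maintain the luminal state. KRT5, KRT14 and KRT17 are intermediate filament proteins of basal cells. EPCAM and E-cadherin, the product of CDH1, are surface adhesion proteins of epithelial cells, and CDH1 is repressed by SNAI, ZEB and TWIST factors during epithelial-mesenchymal transition.

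Values are the deposited CPM, read counts relative to the size of the library, which the authors had scaled by TMM, the trimmed mean of M values, and means are given ± SD over 4 libraries. The libraries held an estimated 9721649 to 12482542 reads, and 3 reads, the floor below which a level is not read, corresponded to 0.212 to 0.267 CPM. High glucose replicate 1 stood apart: its log2 deviations from the mean of the other libraries of its group fell with transcript length (Spearman rho = -0.65 across 11220 genes, which are not independent replicates). The same rho was 0.24 to 0.46 in the other high glucose libraries, whose reference includes replicate 1, and -0.13 to 0.05 at low glucose. Changes are differences in log2(CPM + 1), high minus low glucose, tested in limma and adjusted over all 21059 genes.

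The cell type was checked first against its markers. Keratins 8 and 18 of simple epithelium were abundant, with KRT8 levels of 131 ± 5.95 CPM in the low and 88.3 ± 10.3 CPM in the high glucose group and KRT18 levels of 233 ± 4.85 and 170 ± 18.1 CPM. The epithelial markers CLDN3, at 0 in all 8 libraries, and KRT19, at no more than 0.0825 CPM in any library, were absent or below the floor. CLDN4 lay above the floor in all 8, at 1.33 ± 0.266 CPM with low and 2.02 ± 0.373 CPM with high glucose (adjusted p = 0.0363). CLDN7 went the other way, from 0.424 ± 0.142 to 0.128 ± 0.0324 CPM (adjusted p = 0.00677), under the floor in every high glucose library. Of the mesenchymal markers, VIM was at 1638, FN1 at 366 and CDH2 at 16.3 CPM per kilobase of transcript over the 8 libraries, against 143 for KRT18 and 61.4 for KRT8. By group, VIM was at 4091 ± 28.5 CPM with low and 2967 ± 210 CPM with high glucose, FN1 at 3612 ± 43.96 and 2537 ± 360 CPM, and CDH2 at 55.2 ± 2.29 and 75.5 ± 1.80 CPM. ZEB1, also a mesenchymal marker, was at 27.0 ± 0.896 and 37.4 ± 4.81 CPM (adjusted p = 0.00541). Levels of these mesenchymal markers and of both keratins thus differed between the groups without overlap. VIM, FN1, KRT8 and KRT18 were lower and CDH2 and ZEB1 higher at high glucose. The part of all these markers in the changes given below was not tested. Cells labelled as estrogen receptor negative breast cancer thus held epithelial keratins beside more abundant VIM and FN1.

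Of the 9 genes, 3 changed between the groups: GATA3 and EPCAM were higher and FOXA1 was lower at high glucose. The same test called 46.8% of all genes in either direction, 22.0% higher and 24.8% lower, so the 3 of 9 were not above the background. Only PGR and EPCAM had a mean of at least 1 CPM, and the other 7 lay below it, KRT14 at 0 throughout. The test called 62.1% of the genes with a mean of at least 1 CPM and 13.8% of those below. The same 3 genes were those whose groups did not overlap, which held for 44.5% of all genes. In bulk RNA, fewer cells that express a gene and less RNA per cell cannot be told apart, which holds for each gene here. The median change of the 9 genes was 0, which is the value of KRT14, a gene without reads, and that of all genes -0.01 on the log2 scale.

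**Figure D1:**
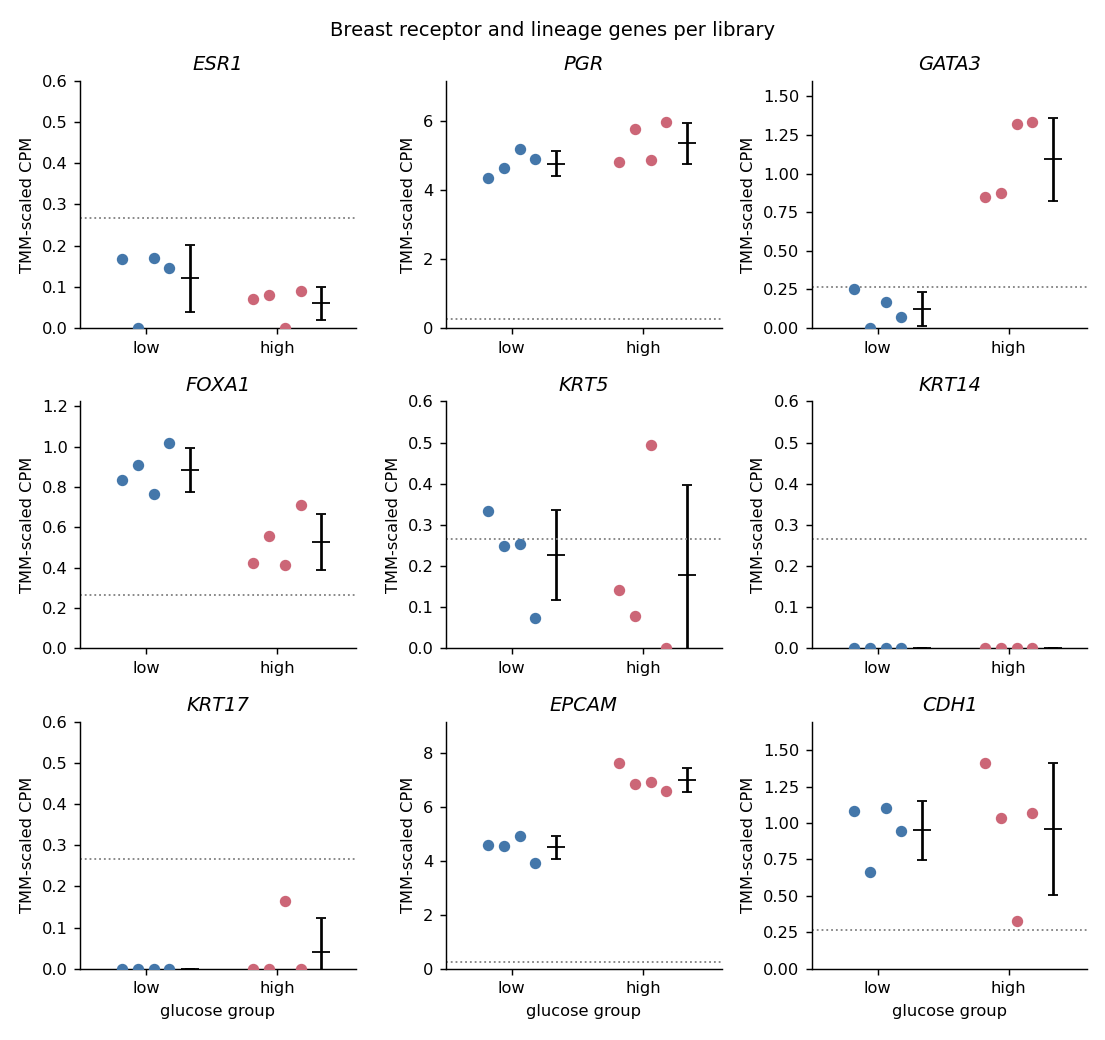
TMM-scaled CPM of each gene (vertical axis, own scale per panel) in the low (blue) and high (red) glucose libraries, replicates 1 to 4 from left to right, with the mean and SD as a black bar (cut at 0) and the value of 3 reads in the shallowest library as a dotted line. GATA3 and EPCAM lay higher and FOXA1 lower in every high glucose library than in any low glucose library, ESR1 stayed under the dotted line, and KRT14 was 0 throughout.

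The hormone receptors came first. ESR1 (ENSG00000091831.23, chr6:151656672-152129619) was at 0.167, 0, 0.170 and 0.146 CPM in low glucose replicates 1 to 4 and at 0.0706, 0.0797, 0 and 0.0889 CPM in high glucose replicates 1 to 4. These values stand for 6 reads over the low and 3 reads over the high glucose libraries, none of which rose above the floor, so no fold change is given. The groups overlapped, since each held a library at 0. The test gave a log2 change of -0.08 (95% interval -0.21 to 0.06, adjusted p = 0.312), and without low glucose replicate 2, the library at 0, it gave -0.13 (adjusted p = 0.0189). Positions here and below are those of the RefSeq annotation on GRCh38.p14.

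PGR (ENSG00000082175.14, chr11:101029624-101129813) was measured more firmly than its inducer, at 4.33, 4.64, 5.18 and 4.88 CPM at low glucose and 4.80, 5.76, 4.87 and 5.95 CPM at high glucose. It rested on 236 and 266 reads. High glucose replicates 2 and 4 lay above all low glucose libraries and replicates 1 and 3 among them. The means were 4.76 ± 0.360 and 5.35 ± 0.597 CPM, a log2 change of 0.14 (SE 0.0886, 95% interval -0.07 to 0.35, adjusted p = 0.255), which did not pass the test. An exact 2-sided permutation test of the means gave p = 0.2, where 4 libraries against 4 cannot go below 0.0286. After quantile normalization the change was 0.31 (adjusted p = 0.0292). The exons of PGR share 737 bases with the opposite-strand gene PGR-AS1, and without a stated use of the strand in counting, reads of the pair cannot be told apart.

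The luminal factors moved in opposite directions. GATA3 (ENSG00000107485.17, chr10:8045333-8075198) was at 0.250, 0, 0.170 and 0.0728 CPM at low glucose and 0.847, 0.877, 1.32 and 1.33 CPM at high glucose. In reads, this was 3, 0, 2 and 1 against 12, 11, 16 and 15. Every low glucose library was at or under the floor and every high glucose library above it, with no overlap. The means of 0.123 ± 0.110 and 1.09 ± 0.268 CPM gave a log2 change of 0.89 (SE 0.109, 95% interval 0.64 to 1.15, adjusted p = 4.66e-04), and the exact 2-sided permutation test gave p = 0.0286, the smallest it can give. Summed over libraries, 54 against 6 reads gave a ratio per read sequenced of 8.91 (exact 95% interval 3.84 to 25.3, counting error only), an estimate whose low glucose side rests on 3 reads or fewer per library. The log2 change of so low a gene depends on the value added before the logarithm, and with 0.1 CPM in place of 1 CPM it was 2.54 (adjusted p = 0.00190). GATA3-AS1, a divergent neighbor, stayed at no more than 0.0828 CPM in the low and 0.0706 CPM in the high glucose libraries.

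FOXA1 (ENSG00000129514.6, chr14:37589552-37595249) was at 0.834, 0.911, 0.764 and 1.02 CPM at low glucose and 0.424, 0.558, 0.412 and 0.711 CPM at high glucose. All high glucose libraries lay below all low glucose libraries, and all 8 lay above the floor. The reads behind these values were few, 44 in the low and 26 in the high glucose libraries, a ratio of 0.585 (exact 95% interval 0.346 to 0.971). The log2 change was -0.31 (SE 0.0738, 95% interval -0.48 to -0.13, adjusted p = 0.0121), with p = 0.0286 in the exact permutation test. With 0.1 CPM added it was -0.67 (adjusted p = 0.0202). TTC6, which shares 16 exon bases with FOXA1 on the other strand, was at 0 to 0.219 CPM at low and at 0 in all high glucose libraries.

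**Figure D2:**
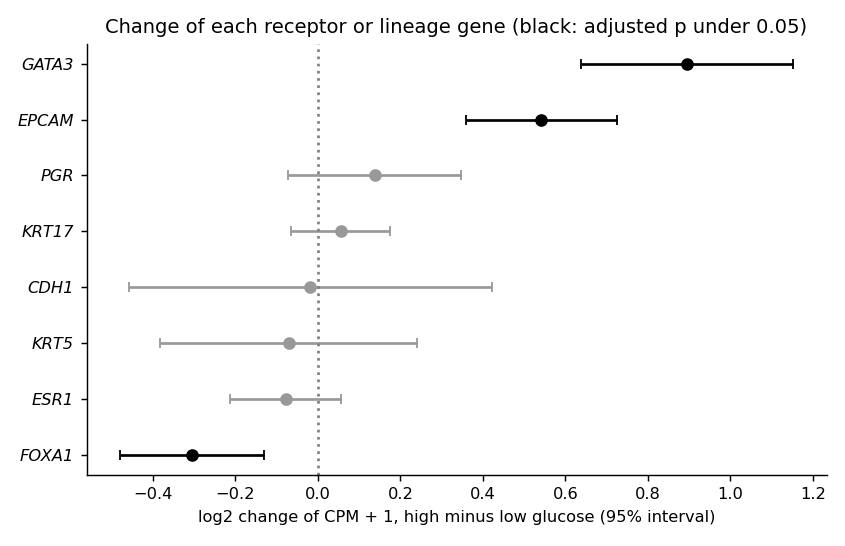
Change of each gene on the log2(CPM + 1) scale (horizontal axis, high minus low glucose) with its 95% interval from limma, KRT14 left out as 0 in all libraries; black marks an adjusted p under 0.05. GATA3 (0.89) and EPCAM (0.54) lay to the right of 0 and FOXA1 (-0.31) to its left, and the other intervals held 0.

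RefSeq promoter windows, from 250 bases before to 50 bases after a transcript start on GRCh38.p14, were found for ESR1, PGR, GATA3, FOXA1 and KRT5, 5 of the 9 genes. They were searched on both strands for CAGGTG, the E-box bound by SNAI and ZEB factors, AGATAA for GATA factors, TGTTTAC for forkhead factors and AGGTCA, the half-site of estrogen receptors, none of which contains another. Of 35116 windows of this length, 20.6% held the E-box, 10.3% the GATA motif, 3.42% the forkhead motif and 13.8% the half-site. Of the windows of the 5 genes, only the single windows of FOXA1 and KRT5 held any of them, 1 E-box each, which began at position -122 and at position -130 from the start. The windows of the lineage factors that moved apart are shown, gene strand, 5′ to 3′, with the E-box in capitals. For GATA3 it is the window of the canonical transcript, chr10:8054438-8054737 on the plus strand, 1 of 6 starts in the RefSeq set. For FOXA1 it is chr14:37595200-37595499 on the minus strand.
GATA3: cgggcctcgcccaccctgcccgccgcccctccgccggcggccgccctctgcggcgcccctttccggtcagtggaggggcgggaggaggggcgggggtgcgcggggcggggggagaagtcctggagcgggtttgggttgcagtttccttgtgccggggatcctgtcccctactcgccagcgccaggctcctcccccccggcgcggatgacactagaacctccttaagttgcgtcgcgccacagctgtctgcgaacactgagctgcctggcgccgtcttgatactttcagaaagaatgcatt
FOXA1: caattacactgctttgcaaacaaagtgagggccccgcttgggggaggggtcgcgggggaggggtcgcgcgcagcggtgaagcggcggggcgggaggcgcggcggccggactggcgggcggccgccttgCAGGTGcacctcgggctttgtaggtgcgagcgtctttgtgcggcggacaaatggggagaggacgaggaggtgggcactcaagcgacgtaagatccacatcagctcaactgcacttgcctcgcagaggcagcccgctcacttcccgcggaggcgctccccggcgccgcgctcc
The GATA3 window has no capitals because none of the motifs was found in it, and a match or its absence is a description of these letters and not of binding.

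The basal keratins were at or near 0 in both groups. KRT5 (ENSG00000186081.12, chr12:52514575-52520394) was at 0.333, 0.248, 0.255 and 0.0728 CPM under low and 0.141, 0.0797, 0.495 and 0 CPM at high glucose. High glucose replicates 3 and 4 held the highest and the lowest of the 8 values, and the groups overlapped. Over all libraries of a group this came to 11 and 9 reads, a ratio of 0.810 (exact 95% interval 0.297 to 2.15), so a fall or a rise within these bounds was not detectable at this depth. The log2 change was -0.07 (95% interval -0.38 to 0.24, adjusted p = 0.718), and 0.0027 without high glucose replicate 4. In the canonical transcript of KRT5, 8.15% of 31-base words also occur in another gene, mostly KRT6B, which was at 0 in all libraries.

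KRT14 (ENSG00000186847.6, chr17:41582279-41586895) was listed at 0 in all 8 libraries, and KRT17 (ENSG00000128422.16, chr17:41619442-41624575) in 7 of 8, the exception being high glucose replicate 3 with 0.165 CPM, or 2 reads. Both therefore lay under the floor of 3 reads in every library. They share 46.8% and 37.7% of their 31-base words with other genes, mainly unnamed copies, and how the authors' counting treated reads that match several genes is not given in the sources used here.

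The epithelial adhesion genes differed from each other. EPCAM (ENSG00000119888.10, chr2:47369311-47387020), the best measured of the 9 genes, was at 4.58, 4.56, 4.93 and 3.93 CPM at low glucose and 7.62, 6.86, 6.93 and 6.58 CPM at high glucose. The lowest high glucose library lay above the highest low glucose library. The means were 4.50 ± 0.414 and 6.996 ± 0.445 CPM, with 222 and 352 reads, and the ratio of reads was 1.57 (exact 95% interval 1.32 to 1.86). The log2 change was 0.54 (SE 0.0774, 95% interval 0.36 to 0.72, adjusted p = 0.00104), with p = 0.0286 in the exact permutation test. The highest value was that of high glucose replicate 1, the library with the length trend, and EPCAM has a short canonical transcript of 1547 bases. Without that library the change was 0.50 (adjusted p = 0.00261), and after removal of every library's trend on transcript length it was 0.61 (adjusted p = 2.74e-04).

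CDH1 (ENSG00000039068.19, chr16:68737292-68835537) was at 1.08, 0.663, 1.10 and 0.947 CPM at low glucose and 1.41, 1.04, 0.330 and 1.07 CPM at high glucose. The high glucose libraries held both the highest value, in replicate 1, and the lowest, in replicate 3, so the groups overlapped fully. With 47 and 49 reads the ratio was 1.03 (exact 95% interval 0.677 to 1.57), and the log2 change was -0.02 (95% interval -0.46 to 0.42, adjusted p = 0.990). The interval leaves room for a change as large as that of EPCAM on the scale of read ratios, so the test does not show that CDH1 stayed level. The sign of its change turned without high glucose replicate 3, where it was 0.16 (adjusted p = 0.299). An unnamed opposite-strand gene (ENSG00000260798) shares 347 exon bases with CDH1.

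Levels were then ordered per kilobase of the canonical transcript, which allows genes to be compared. At low glucose EPCAM led with 2.91 ± 0.267 CPM per kilobase, followed by PGR with 0.365 ± 0.0276, FOXA1 with 0.251 ± 0.0312, CDH1 with 0.197 ± 0.0423 and KRT5 with 0.102 ± 0.0492. GATA3, ESR1, KRT14 and KRT17, at or under the floor in every low glucose library, were given no place in this order. Among neighbors in this order, EPCAM and PGR, and PGR and FOXA1, had ranges over libraries that did not overlap, and the further neighbors overlapped. At high glucose GATA3, with 0.355 ± 0.0871 CPM per kilobase, stood at rank 3, and FOXA1, with 0.150 ± 0.0398, at rank 5 after CDH1, with 0.200 ± 0.0944. EPCAM with 4.52 ± 0.288 and PGR with 0.410 ± 0.0458 CPM per kilobase again came first and second, and their ranges were the only neighboring ones that did not overlap. Averaged over the 8 libraries, 56.0% of the 20730 genes with a length had a lower level per kilobase than EPCAM, 28.1% a lower one than PGR and 21.8% a lower one than FOXA1.

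Other genes of the same pathways were read from lists of general knowledge. Of 18 estrogen receptor targets, 6 passed the test, 4 higher and 2 lower, with a median change of 0.00 on the log2 scale. CCND1, the cyclin that drives entry into the cell cycle, rose from 56.4 ± 1.05 to 83.1 ± 2.84 CPM (log2 change 0.55, adjusted p = 8.67e-06), SLC39A6, a zinc transporter, from 49.6 ± 0.803 to 60.3 ± 1.94 CPM (0.28, adjusted p = 1.50e-04), and IL6ST, the signal transducer of interleukin 6, from 263 ± 2.48 to 395 ± 40.0 CPM (0.58, adjusted p = 5.44e-04). TFF1, a widely used target gene of the receptor, was at 0 in all libraries. The number called, 6 of 18, was below the 46.8% of the whole table. Of the 18, 12 had a mean of at least 1 CPM, where 62.1% of genes were called, against 13.8% below. With only genes of that mean tested, 7 of 12 passed, against 9631 of 14372 genes.

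Of 28 nuclear receptors and coregulators, 27 were in the table, and 12 of these rose and 1 fell, with a median change of 0.22. The 13 of 27 called lie near the 46.8% of all genes, and 21 of the 27 had a mean of at least 1 CPM, where 62.1% were called. By direction, 22.0% of all genes were called higher and 24.8% lower. With libraries left out in turn, 9 to 17 of the 27 were called, 17 without high glucose replicate 1, the library with the length trend. The gene that fell, named after its values were seen, was the retinoic acid receptor RARB, at 3.43 ± 0.999 CPM in the low and 1.35 ± 0.292 CPM in the high glucose group (log2 change -0.90, adjusted p = 0.00446). RARA, another retinoic acid receptor, rose from 27.3 ± 1.35 to 51.9 ± 1.20 CPM (log2 change 0.91, adjusted p = 3.90e-06). The vitamin D receptor VDR rose from 2.93 ± 0.482 to 8.84 ± 1.63 CPM (1.32, adjusted p = 3.22e-04). For RARA and VDR every high glucose library lay above every low glucose library.

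Of 22 genes of the luminal lineage 6 rose and 6 fell. The median change of 0 is the value of the 3 genes at 0 in every library. Against these 12 of 22 called, split evenly, stand 46.8% of all genes, 22.0% higher and 24.8% lower. Of the 22, 12 had a mean of at least 1 CPM, where 62.1% of genes were called. With only genes of that mean tested, 11 of 12 passed, against 9631 of 14372 genes. This share was above that of all genes of that mean. So were those of 2 lists read below, with 11 of 15 basal and myoepithelial genes and 8 of 10 repressors of CDH1. No set test was run on these shares, and the lists were chosen with earlier results known. TFAP2C, an AP-2 factor of luminal cells, rose from 54.7 ± 2.94 to 108 ± 7.19 CPM (0.96 on the log2 scale, adjusted p = 1.77e-05), and GATA2, of the same family as GATA3, from 7.18 ± 0.426 to 16.1 ± 1.27 CPM (1.06, adjusted p = 2.14e-05). GATA6, named after its values were seen, rose from 6.72 ± 0.315 to 9.96 ± 1.51 CPM (0.50, adjusted p = 0.00699). CD24, a surface protein of luminal cells, fell from 123 ± 3.07 to 83.2 ± 3.76 CPM (-0.56, adjusted p = 2.14e-05). ERBB2, MUC1 and KIT, also named after their values were seen, fell as well, as did KRT8 and KRT18, given above. ERBB2 went from 63.6 ± 1.29 to 39.2 ± 2.58 CPM (-0.69, adjusted p = 3.00e-05) and MUC1 from 9.36 ± 0.613 to 4.72 ± 0.602 CPM (-0.86, adjusted p = 2.56e-04). KIT went from 48.8 ± 2.60 to 39.8 ± 1.39 CPM (-0.29, adjusted p = 0.00139).

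Of 25 further basal and myoepithelial genes, 24 were in the table, 6 rose and 6 fell, and the median change was -0.02. The 12 of 24 called are near the 46.8% of all genes, and 15 of the 24 had a mean of at least 1 CPM, where 62.1% were called. ITGB4, the integrin of hemidesmosomes, fell from 16.6 ± 1.06 to 4.78 ± 0.567 CPM (-1.61 on the log2 scale, adjusted p = 9.92e-06). CAV1, the main protein of caveolae, rose from 322 ± 4.51 to 437 ± 18.01 CPM (0.44, adjusted p = 3.96e-05) and FOXC1, a forkhead factor of basal-like tumors, from 17.6 ± 1.35 to 36.9 ± 3.72 CPM (1.03, adjusted p = 5.68e-05). The basal transcription factor TP63 averaged 0.777 CPM in the low and 0.731 CPM in the high glucose libraries and did not pass the test.

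Beside EPCAM and CDH1, 36 genes of epithelial junctions and identity were read, of which 7 rose, 5 fell and 24 did not pass the test, with a median change of 0.05. The 12 of 36 called are fewer than the 46.8% of all genes would give. Only 19 of the 36 had a mean of at least 1 CPM, and the test called 62.1% of such genes and 13.8% of those below. With only genes of that mean tested, 11 of 19 passed, against 9631 of 14372 genes. The 3 with the smallest adjusted p encode tight junction proteins, and all rose. CGN, which encodes cingulin, went from 8.37 ± 1.02 to 27.03 ± 1.87 CPM (1.58 on the log2 scale, adjusted p = 1.11e-05), OCLN, which encodes occludin, from 6.68 ± 0.695 to 20.7 ± 0.991 CPM (1.50, adjusted p = 7.86e-06), and CLDN1, which encodes claudin-1, from 0.960 ± 0.255 to 4.64 ± 0.326 CPM (1.53, adjusted p = 3.02e-05). CLDN3 and ST14 were at 0 in all libraries.

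Among 12 factors listed as repressors of CDH1 or drivers of epithelial-mesenchymal transition, 4 rose and 3 fell, with a median change of -0.13. The 7 of 12 called lie near the background, since 10 of the 12 had a mean of at least 1 CPM, where 62.1% of genes were called. PRRX1, a homeobox factor, fell from 110 ± 2.37 to 49.5 ± 2.46 CPM (-1.14 on the log2 scale, adjusted p = 1.78e-06) and SNAI2, a zinc finger repressor, from 246 ± 7.33 to 145 ± 9.33 CPM (-0.76, adjusted p = 2.29e-05). TWIST2, a basic helix-loop-helix factor, rose from 15.9 ± 1.71 to 32.2 ± 4.09 CPM (0.98, adjusted p = 2.53e-04). CDH1 itself did not pass the test, and the members of the list moved both ways.

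**Figure D3:**
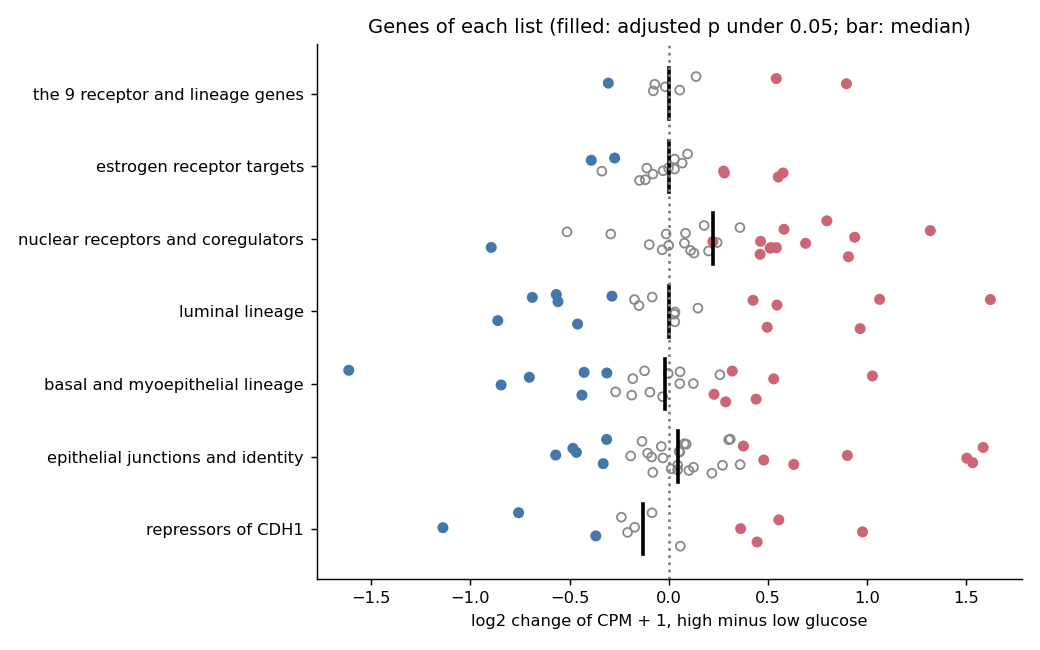
Change of every gene above 0 in each list (horizontal axis, log2(CPM + 1), high minus low glucose), 1 circle per gene, filled red (higher) or blue (lower) where the adjusted p was under 0.05, with the median over all genes of the list as a black bar. The medians lay between -0.13 and 0.22, and every list held genes that rose and genes that fell.

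Markers of other cell types were read as a check of the cultures. Of 10 such genes 7 were in the table, and their summed level was 3.99 to 4.58 CPM in the low and 5.95 to 8.89 CPM in the high glucose libraries. Of the 7, 4 were called, 2 higher and 2 lower, against 46.8% of all genes. Only 2 of the 7 had a mean of at least 1 CPM, where 62.1% of genes were called, against 13.8% below. CDH5, of endothelial cells, fell from 0.278 ± 0.130 to 0.0206 ± 0.0412 CPM (adjusted p = 0.0116), under the floor in every high glucose library. The blood cell marker PTPRC was at no more than 0.178 CPM and LYZ at no more than 0.0706 CPM in any library, both under the floor. CD14, a receptor of monocytes, rose from 1.25 ± 0.337 to 4.24 ± 1.33 CPM (1.20 on the log2 scale, adjusted p = 0.00252) and PECAM1, of endothelial cells, from 1.0001 ± 0.159 to 2.13 ± 0.580 CPM (0.63, adjusted p = 0.00775), while VWF, also of endothelial cells, fell from 1.45 ± 0.0904 to 0.310 ± 0.417 CPM (-0.95, adjusted p = 0.00592). The part of these genes in the changes of GATA3, FOXA1 and EPCAM was not tested.

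The genes whose values over the 8 libraries were most like those of the 2 better measured genes were found by Pearson's r of log2(CPM + 1) among 14371 genes with a mean of at least 1 CPM, as a description. For PGR they were ZNF778 (r = 0.9355) and AC026979.4 (r = 0.9249), 2 of 11 genes above 0.9. For EPCAM they were PRPF19 (r = 0.9944) and TRIM11 (r = 0.9940), and 2171 genes were above 0.9, so the measure picks out few genes for PGR and many for EPCAM. The group means were not removed, so r for EPCAM includes the difference between the groups given above and is not a likeness particular to it.

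**Figure D4:**
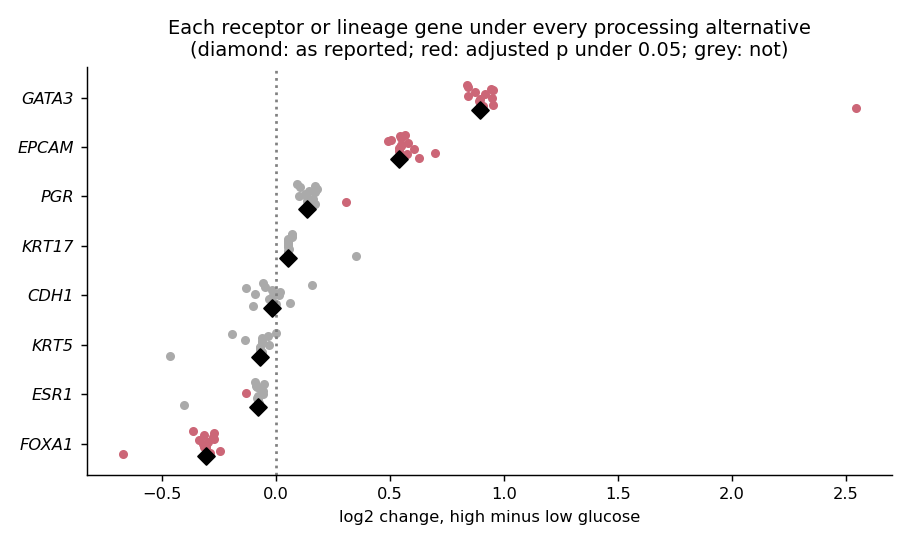
Log2 change of each gene (horizontal axis, high minus low glucose) as reported (black diamond) and under each other setting of the processing (dots, red where the adjusted p was under 0.05), including each library left out in turn. GATA3, EPCAM and FOXA1 kept direction and call in every setting drawn, with the outermost GATA3 (2.54) and FOXA1 (-0.67) dots those with 0.1 CPM added, while the dots of CDH1 and KRT5 fell on both sides of 0.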

How the data were processed

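RNA from 8 samples of MDA-MB-157 cells was sequenced on an Illumina HiSeq. The authors deposited 1 table of CPM scaled with TMM factors. The submitters' processing notes name edgeR and hg38, while the methods, which cover tumors and cell lines together, describe stranded libraries aligned to hg19 with TopHat. Which of these made this table is not stated, and its counter and strand setting are not given in the sources used here. Of its 21077 lines, 18 Y copies identical to the X copies were left out, and for 17 symbols on 2 identifiers the one with the higher mean was used. The size of 1 read per library was taken as the most frequent value above 0, and depth as the summed values divided by it. Of values below 200 reads 72.0% to 73.3% were whole steps (within 0.005 read), so no count test was run, but the values of all 9 genes were whole steps. Intervals and floors cover counting error only, since these reads are not independent molecules.

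Log2(CPM + 1) was compared with limma 3.58.1 in R 4.3.3 (eBayes with a trend, 2-sided, no covariate), with Benjamini-Hochberg adjustment over all 21059 genes, no filter and a threshold of 0.05. For single genes, group means went into an exact 2-sided permutation test (scipy 1.17.1, 70 assignments), and summed reads with an exact conditional interval for a ratio. Lengths, overlaps and shared 31-base words came from GENCODE release 44, positions and promoter windows from RefSeq, so coordinates are those of the annotation.

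The 9 genes and the lists were chosen with earlier results of these data known. The text names all 9 genes, in each list at most the 3 genes with a mean of at least 1 CPM and the smallest adjusted p, markers of other cell types above 1 CPM in any library, and for each of the 9 with a mean of at least 1 CPM the 2 genes most like it. Of the genes this rule selects, 1 is left out of the text. The cell type markers and list members at 0 or near the floor were named beside these. So were RARB, GATA6, ERBB2, MUC1 and KIT, outside this rule and after their values were seen.

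Alternatives were a pseudocount of 0.1 CPM, only genes with a mean of at least 1 CPM, median-of-ratios scaling, quantile normalization, the replicate number as a block, removal of the transcript length trend, eBayes without a trend, and each library left out.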

Additional observations from a re-analysis of the deposited data

Results flagged for a closer look

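In 72 groups of 4 libraries, 7 had 1 library far from the others (Dixon's test at 95%), where about 3.6 are due by chance, 1 in 20. Of these 7, 4 were at low and 3 at high glucose. Among the 9 genes there were 2: ESR1 was at 0 CPM in low glucose replicate 2 against 0.146 to 0.170 CPM in the other low glucose libraries, and KRT17 was at 0.165 CPM in high glucose replicate 3 and at 0 in the others. These are differences of 2 reads.

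Among the named genes, SNAI2 was at 256 CPM in low glucose replicate 1 against 241 to 243 CPM, and PECAM1 at 1.24 CPM in low glucose replicate 4 against 0.911 to 0.934 CPM. Among the mesenchymal markers, VIM was at 3282 CPM in high glucose replicate 1 against 2856 to 2869 CPM, and CDH2 at 78.2 CPM in high glucose replicate 4 against 74.5 to 74.7 CPM. The estimated depth of low glucose replicate 4 was 12104244 reads against 10389651 to 10622968 reads in the other low glucose libraries.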

How the results depend on the processing

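GATA3, FOXA1 and EPCAM kept direction and call in every alternative in which they were tested, 14 for GATA3 and FOXA1 and 15 for EPCAM. The changes ran from 0.84 to 2.54 for GATA3 (adjusted p 3.71e-04 to 0.00548), from -0.67 to -0.24 for FOXA1 (adjusted p 0.00408 to 0.0353) and from 0.49 to 0.70 for EPCAM (adjusted p 2.32e-04 to 0.00801). With only genes of mean at least 1 CPM tested, 1 of the 2 receptor and lineage genes left was called, and 2 of the 2 markers of other cell types left, because the others were not tested. PGR passed after quantile normalization (0.31, adjusted p = 0.0292; 0.0292 to 0.469 over its alternatives) and ESR1 without low glucose replicate 2 (-0.13, adjusted p = 0.0189; 0.0189 to 0.548 over its alternatives). The sign of CDH1 turned with median-of-ratios scaling (0.0022), quantile normalization (0.064), and without low glucose replicate 1 (0.02), low glucose replicate 3 (0.02) or high glucose replicate 3 (0.16), and that of KRT5 without high glucose replicate 4 (0.0027; -0.19 to 0.0027 with each library left out). The causes were not tested. With libraries left out in turn, 8899 to 10156 genes and 3 to 4 of the 9 were called. Same-numbered libraries did not deviate together (r = 0.07, -0.03, 0.01 and -0.04 over 11297 genes), so the replicate numbers give no pairing. With the replicate number as a block, 8921 genes and 3 of the 9 were called. Scaling moved the median of genes with a mean of at least 1 CPM from -0.04 to no further than 0.00. At 3 reads, or 0.212 to 0.267 CPM, ESR1, KRT14 and KRT17 were at or under the floor in every library.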
